A study of Mus musculus with 2 samples.

Results

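The neuropeptide genes described here are Penk, Pdyn, Tac1, Sst, Npy, Vip, Cck, Cartpt, Nts and Crh, 10 genes chosen by name. Their loci were taken as the RefSeq gene span with 50 kb added to either side, and every peak meeting a locus by at least 1 bp was kept. This gave 50 of the 87174 peaks in the deposited list, 10 at the loci of projection neuron peptides (Penk, Pdyn, Tac1), 25 at those of interneuron peptides (Sst, Npy, Vip, Cck) and 15 at those of Cartpt, Nts and Crh, which several neuron types use. No peak was shared between loci. The peaks are regions called accessible by single-nucleus ATAC-seq, in which a transposase inserts sequencing adapters into open DNA. Nuclei came from the striatum of wild-type mouse embryos (strain background C57BL/6J and CD1) at E14.5 (embryonic day), with no other genotype, age or treatment, and 2 libraries formed 1 group. The labels do not say whether the libraries came from separate embryos. The 2 libraries are represented by 1 list of positions without counts, so depth is unknown and no value below has a replicate error. The list also does not separate nuclei or cell types, and which nuclei entered it is not given. Whether a peak stands for few very accessible cells or many weakly accessible ones cannot be told apart, nor can the cell type that carried it.

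Neuropeptides are cut from larger precursor proteins, stored in dense-core vesicles and released to act on G protein-coupled receptors. In the mature striatum, Penk (proenkephalin) marks projection neurons of the indirect pathway, whereas Pdyn (prodynorphin) and Tac1 (the substance P precursor) mark those of the direct pathway. Sst (somatostatin) and Npy (neuropeptide Y) are made together by a class of striatal interneurons that arises in the medial ganglionic eminence. Vip (vasoactive intestinal peptide) and Cck (cholecystokinin) mark interneurons of the caudal ganglionic eminence, and Cck is also used by excitatory cortical neurons. Cartpt encodes the CART peptide, Nts neurotensin and Crh corticotropin-releasing hormone.

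Most members with a known start site had a peak there. RefSeq promoter windows (GRCm38.p6, the assembly that mm10 names), from 250 bases before to 50 bases after a gene start, were at hand for 8 members, and Penk and Crh had no entry. A peak covered such a window at 6 of the 8 genes, Pdyn, Tac1, Sst, Npy, Cck and Cartpt. The background is 64.8% of the 17492 protein-coding genes with a window. Vip and Nts had none. The sequences of 4 windows with a peak and of the 2 genes without are shown 5′ to 3′ on the gene's strand to set them side by side. Capitals mark 4 motifs, each searched on both strands. The core promoter element bound by the TATA-binding protein was spelled TATAAA. The cyclic AMP response element was spelled TGACGTCA. The box bound by SP1-like factors was spelled GGGCGG. The core bound by homeodomain factors such as the DLX proteins was spelled TAATTA. The windows of Pdyn and Nts hold none of these exact spellings.
Tac1, chr6:7554811-7555110, plus strand: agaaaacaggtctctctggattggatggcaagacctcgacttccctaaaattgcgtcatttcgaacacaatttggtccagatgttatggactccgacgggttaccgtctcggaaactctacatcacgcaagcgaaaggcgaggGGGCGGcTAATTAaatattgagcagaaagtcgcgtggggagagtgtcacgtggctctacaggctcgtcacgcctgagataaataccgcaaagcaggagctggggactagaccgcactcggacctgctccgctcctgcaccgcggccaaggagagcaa
Pdyn, chr2:129699889-129700188, minus strand: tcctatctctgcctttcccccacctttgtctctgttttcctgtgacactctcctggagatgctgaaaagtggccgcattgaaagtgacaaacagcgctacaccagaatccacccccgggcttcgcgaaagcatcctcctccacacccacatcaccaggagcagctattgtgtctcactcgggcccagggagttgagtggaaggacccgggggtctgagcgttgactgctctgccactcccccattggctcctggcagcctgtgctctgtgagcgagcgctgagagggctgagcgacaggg
Sst, chr16:23890795-23891094, minus strand: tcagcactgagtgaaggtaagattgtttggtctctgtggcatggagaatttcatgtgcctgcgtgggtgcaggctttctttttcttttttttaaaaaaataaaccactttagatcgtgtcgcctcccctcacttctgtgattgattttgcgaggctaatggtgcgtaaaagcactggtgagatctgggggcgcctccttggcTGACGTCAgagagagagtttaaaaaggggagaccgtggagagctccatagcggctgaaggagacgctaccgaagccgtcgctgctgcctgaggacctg
Cartpt, chr13:99900634-99900933, minus strand: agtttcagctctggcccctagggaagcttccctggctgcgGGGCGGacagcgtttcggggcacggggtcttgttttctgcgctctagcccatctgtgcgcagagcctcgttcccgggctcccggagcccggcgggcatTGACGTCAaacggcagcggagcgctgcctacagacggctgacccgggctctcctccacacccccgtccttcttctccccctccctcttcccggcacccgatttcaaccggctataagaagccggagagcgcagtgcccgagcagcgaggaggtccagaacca
Vip, chr10:5638968-5639267, plus strand: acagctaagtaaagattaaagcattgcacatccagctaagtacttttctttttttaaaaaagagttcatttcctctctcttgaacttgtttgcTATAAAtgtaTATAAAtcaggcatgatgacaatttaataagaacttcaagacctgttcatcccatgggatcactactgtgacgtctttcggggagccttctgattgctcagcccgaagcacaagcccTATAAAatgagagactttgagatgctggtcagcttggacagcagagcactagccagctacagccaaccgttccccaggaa
Nts, chr10:102490369-102490668, minus strand: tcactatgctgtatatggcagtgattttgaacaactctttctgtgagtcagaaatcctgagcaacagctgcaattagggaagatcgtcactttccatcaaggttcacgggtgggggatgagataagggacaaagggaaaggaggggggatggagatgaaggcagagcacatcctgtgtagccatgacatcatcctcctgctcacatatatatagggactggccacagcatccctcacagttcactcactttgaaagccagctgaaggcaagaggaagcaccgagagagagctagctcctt

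All 300 bases of the Tac1, Pdyn, Npy, Cck and Cartpt windows lay under a peak. At Sst the peak covered 177 bases, from base 124 of the window, counted from its 5′ end, to base 300, which includes the gene start. The cyclic AMP response element of Sst, at bases 203 to 210, was within that stretch. That of Cartpt lay at bases 139 to 146. No other member window held the exact letters TGACGTCA, against 2.23% of all 21263 protein-coding windows. Variant spellings of the element were not searched, so its absence from the other windows is not shown. TAATTA was found in the Tac1 window alone among the members, at bases 151 to 156, and in 4.53% of all windows. TATAAA was found only at Vip, at 3 places, and in 12.6% of all windows. The SP1-type box was present at Tac1, Npy and Cartpt, and in 46.2% of all windows. Pdyn has a second window, chr2:129698609-129698908, inside the gene. It was not under a peak, and was the only member window with TGACAG, the core of the motif of MEIS factors, present at 2 places there and in 18.7% of all windows. E-boxes (CANNTG) were in 5 of 9 member windows and in 69% of all windows, and CCAAT in 4 of 9 and 38.2%. A match describes letters only and shows no binding. TGACGTCA, TAATTA and CANNTG read the same on either strand, and no match overlapped a match of another motif in the member windows.

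GC content was lower in the member windows without a peak. These 3 windows had GC shares of 41.7% (Vip), 44.3% (the inner Pdyn window) and 49% (Nts). The windows with a peak ranged from 50.3% (Sst) and 54% (Tac1) through 59% (Pdyn) and 59.3% (Cck) to 66% (Cartpt) and 68% (Npy). The groups of windows did not overlap in GC share. CpG dinucleotides numbered 4 at Vip, 3 at Nts and 5 in the inner Pdyn window, and 10 to 26 in windows with a peak. Over all protein-coding windows, split by GC share into 4 classes of like size, a peak covered 17.3% of the class lowest in GC, 55.6% and 88.3% of the middle classes and 97.9% of the highest. Vip fell in the lowest class and Nts in the next, which also holds Sst and Tac1. The part of GC content in the members' differences was not tested.

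**Figure D1:**
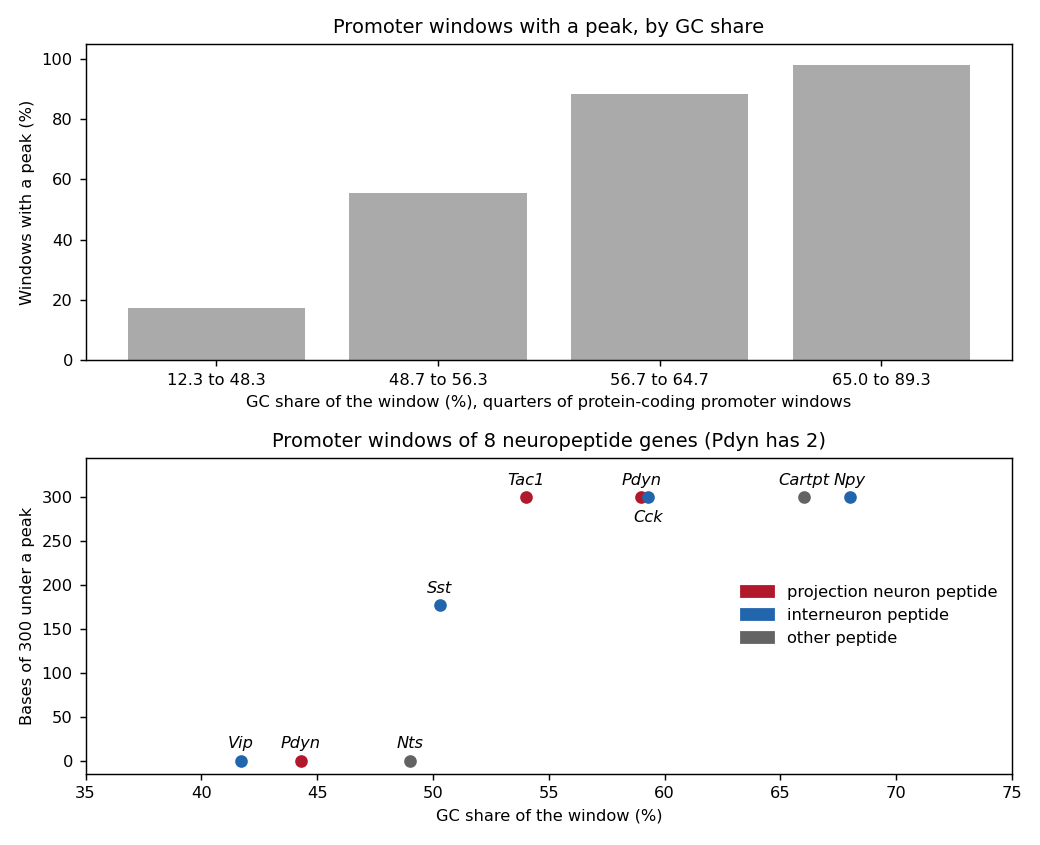
Upper panel: percent of protein-coding promoter windows of 300 bases with a peak, in 4 classes of GC share (GC range in percent on the x axis); the bars rise from 17.3% to 97.9%. Lower panel: GC share (percent) and bases under a peak for the 9 windows of 8 neuropeptide genes, where Vip, Nts and the inner Pdyn window sit at 0 and below 50.3% GC.

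Each projection neuron peptide gene had 1 gene-end peak, that is, a peak within 1000 bp of either end, which was the widest of its locus. Against the median of 1406 bp over all gene-end peaks of the list, that of Tac1 was wider and those of Penk and Pdyn were narrower. The widest peak of the locus was a gene-end peak at Npy (1454 bp) and Crh (1827 bp) too. At Penk (chr4:4133536-4138815), a peak of 1287 bp, chr4:4137952-4139239, covered the end with the higher coordinate. A peak of 548 bp followed 764 bp further on, at chr4:4140003-4140551. The Penk locus held only 2 more, of 199 bp and 224 bp, the latter 35681 bp from the gene and inside the long non-coding RNA gene A830012C17Rik. At Pdyn (chr2:129686549-129699938), the promoter peak was 937 bp wide (chr2:129699398-129700335), with 10.3% of the peaks over protein-coding promoter windows being narrower, and a second peak of 681 bp, chr2:129695879-129696560, lay inside the gene. The remaining Pdyn peaks were of like width and stood on opposite sides, one of 534 bp lying 11152 bp downstream and one of 559 bp lying 13064 bp upstream.

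Tac1 (chr6:7555061-7562978) had the widest peak and the fewest. Its promoter peak, chr6:7554645-7556675, was 2030 bp wide, more than 91% of all peaks in the list and 64% of the peaks over protein-coding promoter windows. The one other Tac1 peak, of 356 bp, lay 40498 bp downstream. Tac1 was the only member with no other annotated gene within its locus. Peaks per projection neuron locus were thus 4 at Penk, 4 at Pdyn and 2 at Tac1, and distal peaks, those over 1000 bp from an end of any annotated gene, were 3, 3 and 1.

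Interneuron peptide loci differed among themselves more than projection neuron loci did in these counts. Cck and Npy had more peaks, 11 and 8, whereas Sst and Vip had 3 each. Of all protein-coding loci, 75% had fewer peaks than Cck, 58.4% fewer than Npy and 24.1% fewer than Sst or Vip. At Cck (chr9:121489824-121495694), 11 peaks were present, 3 over the gene, 3 upstream and 5 downstream. The peak over the Cck promoter window was narrow, at 368 bp (chr9:121495580-121495948), and a wider one of 904 bp, chr9:121493952-121494856, lay 724 bp further into the gene. The widest peak of the Cck locus, of 1101 bp, stood 11716 bp downstream, next to one of 722 bp. Both were nearer to an end of another protein-coding gene than to Cck. Of the 11 peaks, 6 had Cck as the nearest protein-coding gene, judged by gene ends, and 3 lay inside Trak1, a gene of mitochondrial transport. The 3 peaks over Cck also lie within the long non-coding RNA gene Gm38661, which overlaps it, and accessibility cannot be assigned to either gene.

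At Npy (chr6:49822710-49829507), all 8 peaks had Npy as the nearest protein-coding gene, and no other protein-coding gene reaches into the locus. A promoter peak of 1454 bp (chr6:49821865-49823319) and a peak of 734 bp near the far end of the gene (chr6:49828554-49829288) lay at the ends of the gene, the first over the start and the second stopping short of the far end. The 6 other Npy peaks were distal, 3 of them between 42340 bp and 47314 bp upstream and 3 downstream at 16459 bp to 45654 bp. None of the 6 exceeded 762 bp.

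Sst and Vip carried few peaks. At Sst (chr16:23889573-23891342), the promoter peak was 326 bp wide (chr16:23890645-23890971), narrower than all but 1.21% of promoter peaks. The widest Sst peak, of 1420 bp (chr16:23897911-23899331), lay 6569 bp upstream in a stretch without annotated genes, and another, of 476 bp, stood 46504 bp downstream. At Vip (chr10:5639193-5647617), no peak met the gene or lay downstream. Its 3 peaks, of 541 bp, 263 bp and 407 bp, were 38619 bp, 23566 bp and 12469 bp upstream, and the first of these was inside Myct1. Only that of 407 bp had Vip as the nearest protein-coding gene. Vip was the only member with no peak within 10 kb of its span.

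**Figure D2:**
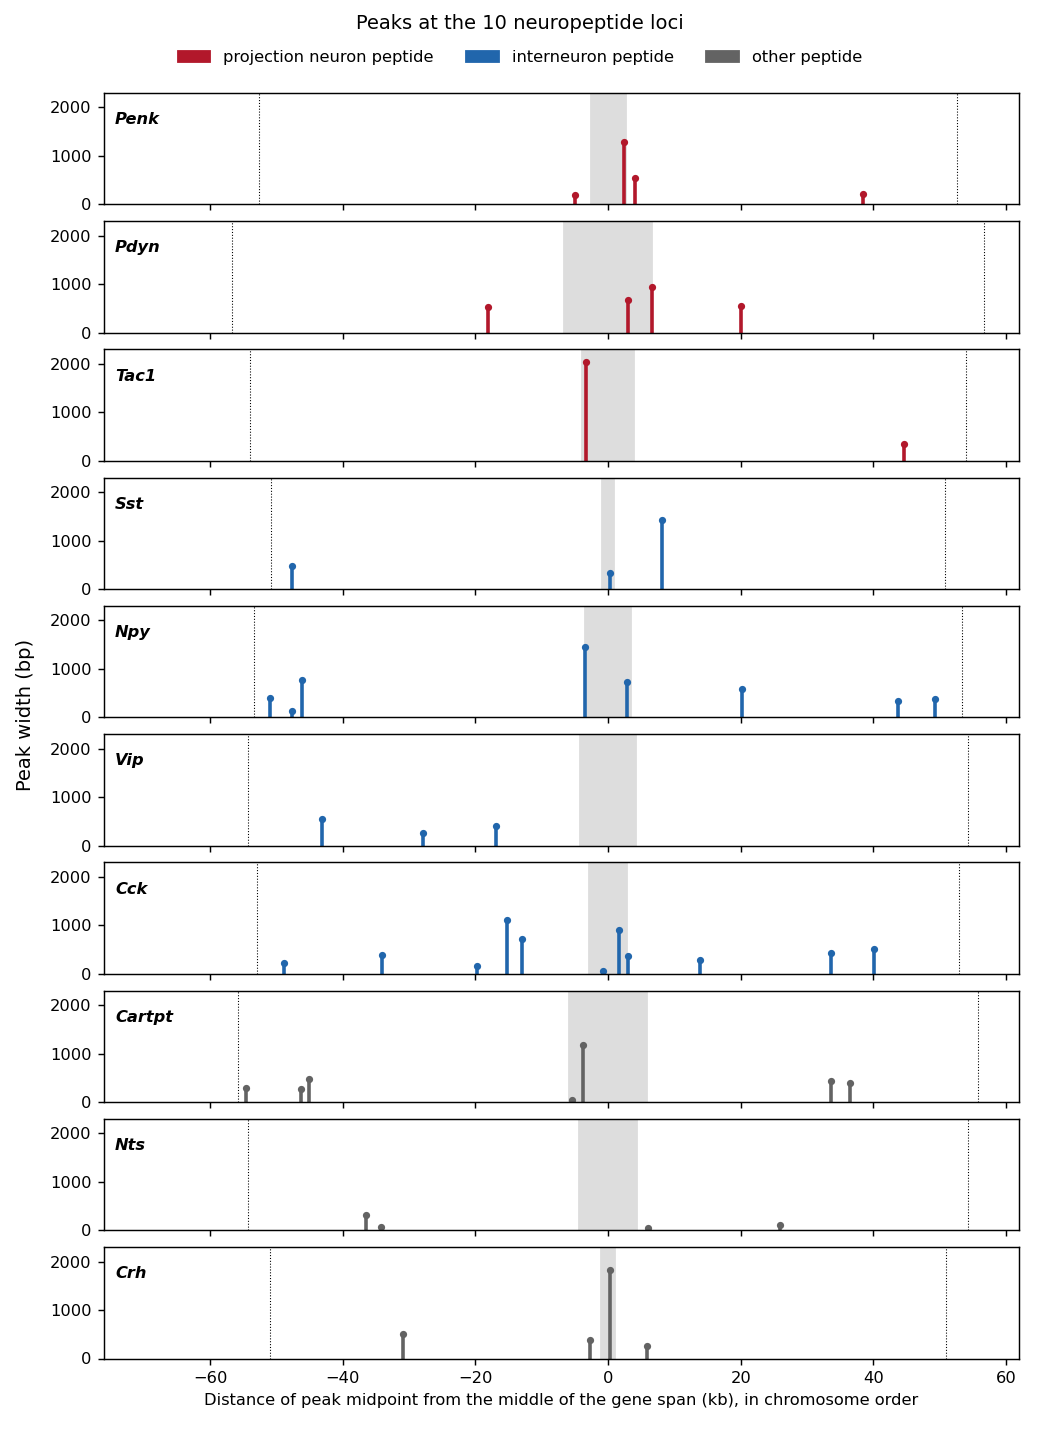
Each panel is 1 locus: the x axis gives the distance in kb of each peak's midpoint from the middle of the gene span (grey, in chromosome order), the y axis the peak width in bp, and dotted lines mark the locus limits. Peaks of 937 to 2030 bp stand at an end of the 3 projection neuron genes, and the spans of Vip and Nts hold no peak.

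Of the remaining members, Crh and Cartpt had a peak of over 1000 bp over the gene, and Nts had no peak over it. At Crh (chr3:19693401-19695396), a peak of 1827 bp, chr3:19693788-19695615, covered most of the gene, and 3 others were 505 bp, 383 bp and 263 bp wide. The 383 bp peak was at an end of the neighbouring gene Trim55, and the 1827 bp peak was also within 1000 bp of an end of the long non-coding RNA gene Gm42189, so it cannot be given to Crh alone. At Cartpt (chr13:99898483-99910179), the promoter peak of 1186 bp, chr13:99899984-99901170, was narrower than most promoter peaks, of which 19.6% were narrower still. It lay within the annotated span, since the span reaches beyond the start used by the promoter window. It is therefore not a gene-end peak by span and is counted among the 6 distal peaks of Cartpt, although it covers the promoter window. Cartpt counts as having a gene-end peak only through a peak of 45 bp at its downstream end. The 5 peaks in the Cartpt flanks were 267 bp to 472 bp wide and at least 27530 bp away.

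Nts (chr10:102481756-102490418) had the least accessible length of the members. Its 4 peaks were 322 bp, 61 bp, 45 bp and 100 bp wide, and together covered 528 bp of the locus. The nearest, of 45 bp, lay 1652 bp upstream of the gene start. That of 100 bp was at an end of Rassf9.

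**Figure D3:**
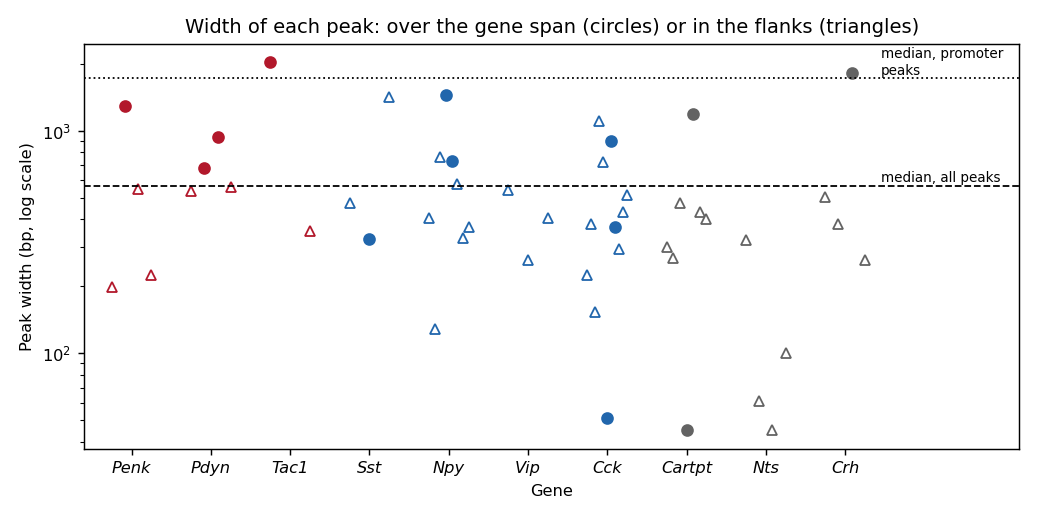
Width of each of the 50 peaks in bp (log axis) by gene, over the gene span (circles) or in the flanks (triangles); the dashed line is the median of all peaks, 565 bp, and the dotted line that of peaks over protein-coding promoter windows, 1720 bp. Only Tac1 and Crh have a peak above the dotted line.

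The 50 peaks were narrower than the list as a whole, with a median width of 406 bp against 565 bp, and 14 of them were wider than that median. Peaks over 1000 bp made up 14% of them and 29% of the list, and peaks under 100 bp 8% and 5.45%. None of the 10 genes had a peak of the broadest 1% (at least 4480 bp) within 1000 bp of the gene span, which 3.95% of protein-coding genes had. Among the 6 promoter peaks, that of Tac1 alone was wider than the median promoter peak of 1720 bp. Distal peaks accounted for 37 of the 50 (74%), close to the 76.6% of the whole list. Distal is judged from the ends of annotated spans, not from promoter windows. Of the peaks over protein-coding promoter windows, 11.1% therefore count as distal, that of Cartpt among them. By position, 13 peaks met a member gene and 37 lay in flanks. Flank peaks were 15 upstream and 16 downstream at the 8 members with a known strand, and 6 at Penk and Crh. Of the flank peaks, 7 lay within 10 kb of the gene and 18 lay over 30 kb away.

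Projection neuron and interneuron peptide loci were then compared. Counts of all peaks were 2, 4 and 4 at the projection neuron loci and 3, 3, 8 and 11 at the interneuron loci, with medians of 4 and 5.5, a difference of -1.5. The ranges overlapped, since Sst and Vip, with 3 each, had fewer peaks than Penk and Pdyn. Distal peaks gave medians of 3 and 4.5, also -1.5 apart. Accessible length was 2258 bp (Penk), 2711 bp (Pdyn) and 2386 bp (Tac1) against 2222 bp (Sst), 4760 bp (Npy), 1211 bp (Vip) and 5150 bp (Cck). Medians were 2386 bp and 3491 bp, a difference of -1105 bp. In accessible length the 3 projection neuron loci lay above Sst and Vip and below Npy and Cck. With 1 peak list and genes that are not replicates, no test of these differences was made. They rest on Npy and Cck: with either left out the difference in peaks was 1 and that in length 164 bp. They rest also on peaks nearer to other genes: with only the peaks whose nearest protein-coding gene was the member, Cck kept 6 peaks and Vip 1, the other 5 loci kept all of theirs, and the differences were -0.5 peaks, 0.5 distal peaks and -8.5 bp. With Cartpt, Nts and Crh (7, 4 and 4 peaks) added to the interneuron genes, the difference in peaks was 0 and that in length -592 bp.

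**Figure D4:**
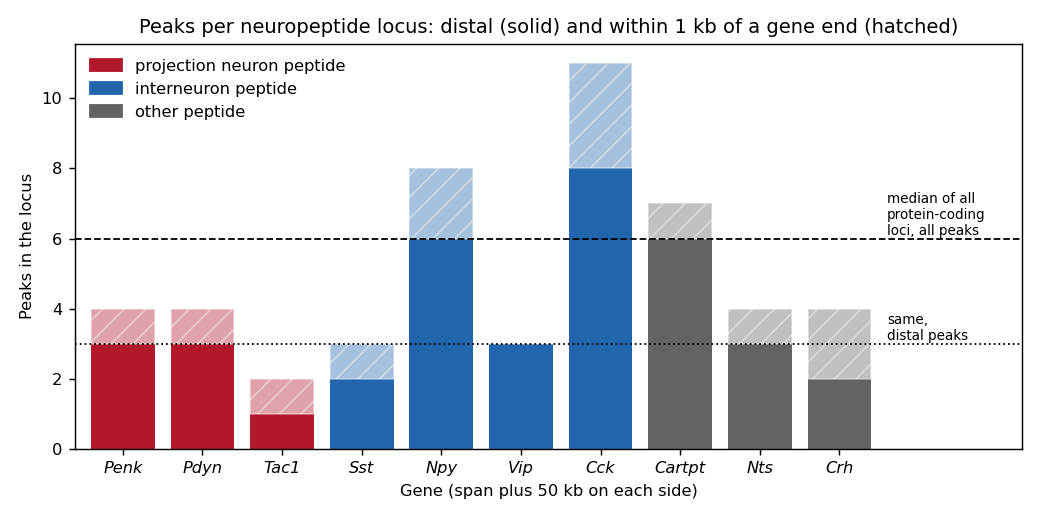
Number of peaks in each locus, distal (solid) or within 1 kb of an end of any gene (hatched), with the medians over all protein-coding loci, 6 for all peaks (dashed) and 3 for distal peaks (dotted). Npy, Cck and Cartpt exceed both lines. The promoter peak of Cartpt is drawn among its distal peaks.

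The gap between the gene classes also depended on distance. With a flank of 10 kb, the projection neuron loci held 3 (Penk), 2 (Pdyn) and 1 (Tac1) peaks and the interneuron loci 2 (Sst), 2 (Npy), 0 (Vip) and 4 (Cck), so that the medians were equal. Accessible length was then 2034 bp, 1618 bp and 2030 bp against 1746 bp, 2188 bp, 0 bp and 1582 bp, a difference of medians of 366 bp in favour of the projection neuron genes. With a flank of 100 kb, the difference was -5 peaks and -6433 bp. The projection neuron loci then held 5 (Penk), 9 (Pdyn) and 4 (Tac1) peaks and the interneuron loci 9 (Sst), 11 (Npy), 5 (Vip) and 19 (Cck), so that the ranges still overlapped. Accessible length was 2503 bp, 7061 bp and 2766 bp against 13194 bp, 6712 bp, 2939 bp and 11686 bp. The length at Sst grew from 2222 bp to 13194 bp, mostly through peaks of 5125 bp and 4145 bp at Bcl6, a transcription repressor gene that lies over 50 kb from Sst. Within 10 kb the classes overlapped in peaks and length. Cck had the most peaks of the 10 members there too, whereas Npy had no more than Sst and Pdyn.

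**Figure D5:**
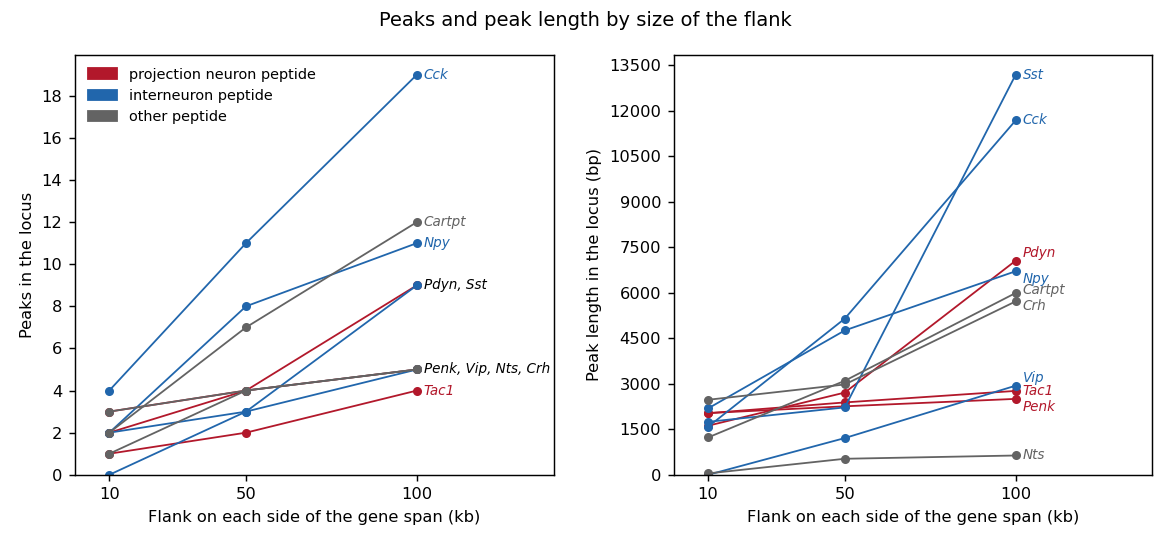
Peaks (left) and peak length in bp (right) per locus for flanks of 10, 50 and 100 kb around each gene span. Classes overlap at each flank size; Cck reaches 19 peaks, and Sst gains most length between 50 and 100 kb.

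Set against all 21774 protein-coding genes, the median member locus had fewer peaks and the same number of distal peaks. All 10 loci held at least 1 peak (background 85.9%), 8 genes had a peak over the span (73.3%) and 8 had a gene-end peak (67.3%). Vip and Nts were the exceptions in both. Projection neuron genes gave 3 of 3 with a gene-end peak, interneuron genes 3 of 4 and the other members 2 of 3. Medians over the members were 4 peaks, 3 distal peaks and 2548.5 bp of accessible DNA, against 6 peaks, 3 distal and 6060.5 bp over all protein-coding loci. Among the 7071 protein-coding genes as long as the members (1770 to 13390 bp), the medians were 6 peaks, 3 distal peaks and 6530 bp.

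The members lie in gene-poor surroundings. Their loci held at most 1 other protein-coding gene (none at Penk, Pdyn, Tac1 and Npy, and 1 at the other 6), whereas 51% of protein-coding genes had 3 or more others. Loci without another protein-coding gene had a median of 3 peaks, those with 1 a median of 5 and those with 3 or more a median of 8. Their median accessible lengths were 2722.5 bp, 4393 bp and 8165.5 bp. Among members without another, Penk, Pdyn and Npy lay above their class median in peaks and Tac1 below. Among members with 1 other, Cck and Cartpt lay above theirs and Sst, Vip, Nts and Crh below. In accessible length, only Npy (4760 bp) and Cck (5150 bp) lay above their class medians. Penk, Pdyn, Tac1, Sst, Vip, Cartpt, Nts and Crh lay below theirs. Of the 50 peaks, 4 were at an end of another gene. The part of neighbouring genes in the members' lower median count and length was not tested.

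Genes that act with the member peptides were examined from lists. Of 20 receptors for these peptides, 16 had a gene-end peak (background 67.3%) and 15 of the 16 with a promoter window had a peak over it (64.8%). Their median was 4.5 distal peaks, against 3 over all genes. Ntsr1, a neurotensin receptor gene, had 15 distal peaks, Oprm1, the mu-opioid receptor gene, 10, and Vipr1, a VIP receptor gene, 10. Oprm1 is 279617 bp long, and 7 of the 10 peaks of its locus lay over the gene. All 10 counted as distal, a peak over its promoter window included, since distance is taken from the ends of annotated spans. Ntsr1 (45004 bp) and Vipr1 (30239 bp) are also longer than the receptors' median of 11508 bp. All 12 genes of peptide processing and storage had a gene-end peak, and all 10 with a window had a promoter peak. Their median was 4 distal peaks, and 2 of them had none. The most distal peaks in that list were at Pam, the amidating enzyme of peptides, with 20, Cadps, a factor of dense-core vesicle release, with 18 and Chga, a granin gene, with 8, as many as at Cpe. Loci include the gene itself, and Pam (274763 bp) and Cadps (450780 bp) are far longer than the list's median of 44018 bp, whereas Chga is 10087 bp long. Vgf, which encodes a secreted peptide precursor, had a peak of 4897 bp at a gene end, of the broadest 1%.

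Among 30 other neuropeptide genes, 23 had a gene-end peak (background 67.3%), and 10 of the 23 with a promoter window had a peak over it (64.8%). Their median was 4 distal peaks. Qrfp had 15 and a gene-end peak of 4988 bp, Kiss1 (kisspeptin) had 11 and Pnoc (prepronociceptin) 9, as many as Pomc, and Ghrh also had a peak of the broadest 1% within 1000 bp of its span. No peak at all was present at the loci of Pmch, the melanin-concentrating hormone precursor of the hypothalamus, and of Nps. These lists are described beside the background and were not tested.

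Gene-end peaks at markers of the tissue and of other cell types are given beside the 67.3% of all protein-coding genes with one. All 11 striatal and ganglionic eminence genes had one (Dlx1, Dlx2, Meis2, Foxp1, Isl1, Bcl11b, Gad1, Gad2, Ppp1r1b, Drd1 and Drd2), as did 3 of 3 genes of medial ganglionic eminence interneurons and 4 of 4 cortical projection neuron genes. So did 1 of 3 liver genes (Apoa1, and neither Alb nor Hnf4a), 2 of 3 microglia genes and 1 of 2 endothelial genes. How far other cell types supplied the peaks at the member loci was not tested.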

How the data were processed

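Single-nucleus ATAC-seq of 2 libraries of wild-type striatum (embryonic day 14.5) was analysed from 1 deposited list of peak positions. Libraries were built with the Chromium single-cell ATAC kit, per the labels' protocols. The submitters' processing notes give mm10 as the build and name 2 tools without their roles, Signac and Cell Ranger ATAC (1.2.0). The peak caller, its threshold, the pooling of libraries and the handling of doublets are not given in the sources used here. The list holds no counts, scores or samples, so depth per library is unknown and intervals were not computed. The origin of the start coordinates (0 or 1) is not given, and the text keeps the deposited values, which may be off by 1.

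Genes came from RefSeq (GRCm38.p6). Of 49997 entries, 402 were left out by rules against entries on scaffolds, entries off the main chromosomes and symbols that occur more than once. Intervals were compared in Python 3.11.15 (pandas 2.3.3). Width is end minus start. Promoter windows, GC shares and motifs came from RefSeq's promoter table. Locus counting was tested on simulated data. All values are descriptions: with 1 peak list no test between groups exists. Named were all members and, of each list, the 3 genes with most distal peaks, up to 3 without peaks and up to 3 with a peak of the broadest 1%; neighbours were named where a result turns on them. Tied genes were taken by symbol. The members and lists were chosen with earlier results of these data known. GC classes, classes by neighbouring genes and starts counted from 0 were added after the data had been seen. Alternatives varied the flank, overlap rule, peak width, joining, assignment, gene-end window and gene classes.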

Additional observations from a re-analysis of the deposited data

How the results depend on the processing

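The 50 peaks became 20 with a flank of 10 kb, 84 with 100 kb and 14 with peaks wider than the median only, and the median of 3 distal peaks per member became 1, 5.5 and 0.5. The projection minus interneuron difference in peaks (-1.5) was 0 at 10 kb, -5 at 100 kb, -2.5 with gaps under 1000 bp joined, -0.5 with nearest-gene peaks only, 0 with Cartpt, Nts and Crh added and -2.92 by means, and ran from -4 to 1 with each gene left out in turn. That in distal peaks (-1.5) was 0.5, -4, -2.5, 0.5, 0 and -2.42 under the same 6 settings, -3 with distal meaning over 2500 bp, and -3 to 0 with each gene left out. That in length (-1105 bp) was 366 bp at 10 kb, -6433 bp at 100 kb, -456 bp with wider peaks only, -8.5 bp with nearest-gene peaks, -592 bp with the 3 genes added, and -2374 to 164 bp with each gene left out. Its direction thus depended on the flank and on Npy and Cck. The cause was not tested. The count of 8 members with a gene-end peak ranged from 6 to 9. With a window of 2500 bp Nts gained one, giving 9 of 10 members against 71.4% of protein-coding genes. Without peaks under 100 bp Cartpt lost its own, giving 7 of 10 against 67%. With wider peaks only Sst and Cartpt lost theirs, giving 6 of 10 against 64%, so the members were then below the background share. Around the gene start only, 6 of 8 members had one (66.6% of protein-coding genes). Reading starts from 0 changed none of these values. No library could be left out, and no paired analysis was possible because the list does not separate the 2 libraries.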

Other observations

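Among receptors of the member peptides, chosen here after their values were seen, Oprm1, Sstr3 and Crhr1 had a peak over a promoter window but none within 1000 bp of an end of the annotated span. Crhr2, a receptor of the corticotropin-releasing hormone family, had neither. A further 5 receptor genes, Oprk1, Sstr1, Sstr4, Npy1r and Npy5r, had a gene-end peak and no distal peak in the locus. Over all protein-coding genes, 20.4% of loci had no distal peak. The widest gene-end peak of these was 3279 bp at Sstr1, a somatostatin receptor gene, which was the only peak in its locus.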
